A study of Mus musculus with 93 samples.

Results

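Liver RNA-seq of the inbred mouse strain WSB/EiJ was compared between a western diet (WD) and a matched control diet (CD). The strain label chose the members, and the diet label split them into 6 WD and 6 CD livers, which are 12 of the 93 livers in the series. WSB/EiJ is a wild-derived inbred strain, and every animal was male. Both groups were kept at 30°C, which is thermoneutral for mice, from 6 weeks of age and received their diet from 7 weeks of age for 17 weeks. WD supplied 40% of its energy as fat, 17% as protein and 43% as carbohydrate, against 10%, 17% and 73% in CD. Each diet group held 4 mice of cohort 6 and 2 mice of cohort 7, so that the cohorts were balanced over the diets, and the difference between diets was fitted with cohort as a covariate. All mice of a group share 1 inbred genome, and the livers were perfused and taken in the afternoon after food had been withdrawn that morning, so the values describe that state only. Replicate numbers below only name the mice.

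Hepatocytes keep their sterol content steady through the transcription factor SREBP2. When membrane cholesterol is low, SREBP2 moves to the nucleus and switches on the genes of cholesterol synthesis and uptake, and when cholesterol is plentiful it is held back in the endoplasmic reticulum. Oxidised sterols in turn activate the receptor LXR, whose targets include the transporters that send sterols into bile. In fat- and cholesterol-rich feeding, monocyte-derived macrophages that take up lipid are known to appear in the liver and to express genes such as Gpnmb and Trem2.

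HMG-CoA synthase 1, encoded by Hmgcs1, acts at the head of the cholesterol synthesis pathway, and the isopentenyl diphosphate isomerase Idi1 acts further along. Their promoters are shown because both genes belong to the set with lower RNA on WD, and because the sterol regulatory element was searched for in them. Each sequence runs 5′ to 3′ on the plus strand from 250 bases before to 50 bases after the transcription start, in RefSeq's GRCm38.p6, and capitals mark the letters TCACNCCAC.
Hmgcs1, chr13:119690101-119690400: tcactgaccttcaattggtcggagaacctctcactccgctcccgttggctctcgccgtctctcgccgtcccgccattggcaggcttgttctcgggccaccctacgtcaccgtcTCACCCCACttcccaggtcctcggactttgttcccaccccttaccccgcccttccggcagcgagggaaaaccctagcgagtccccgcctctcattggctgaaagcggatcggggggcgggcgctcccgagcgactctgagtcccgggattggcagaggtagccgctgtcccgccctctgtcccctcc
Idi1, chr13:8885356-8885655: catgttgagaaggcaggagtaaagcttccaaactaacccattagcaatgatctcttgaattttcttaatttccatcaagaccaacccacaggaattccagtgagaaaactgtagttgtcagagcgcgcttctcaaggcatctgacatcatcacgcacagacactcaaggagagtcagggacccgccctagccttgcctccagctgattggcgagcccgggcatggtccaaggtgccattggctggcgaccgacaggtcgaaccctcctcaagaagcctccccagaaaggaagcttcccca
Of 21 cholesterol synthesis genes, 16 had such a window in the table, and 1 (Hmgcs1) held the element, on the plus strand with its first base at position -137 from the start site. Over all 27025 genes with a window, 388 (1.44%) held it on either strand. The match is a description only, and its absence says that these letters are not in the window.

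Reads on genes ranged from 42719337 to 48004847 in the 12 WSB/EiJ libraries, and the lowest RNA integrity number was 7.2. The hepatocyte gene Alb was among the most abundant transcripts in all 12, at 102890.0 to 138572 CPM (counts brought to a common library size with the normalization factors) on CD. On the first principal component, with 24.7% of the variance, all 6 WD livers (19.4 to 46.1) lay apart from all 6 CD livers (-45.9 to -8.15). WD replicate 4 stood alone on the second component (53.9, where the other 11 ranged from -32.2 to 18.4). CD replicate 5 stood alone on the third (57.3). That library held transcripts of pancreatic digestive enzymes, with Cpa1 at 198.7 CPM and Pnlip at 200.4 CPM, whereas in the other 11 libraries Cpa1 reached at most 0.0263 CPM and Pnlip at most 0.158 CPM. The share of reads that did not map averaged 7.42% ± 2.52 (SD, n = 6) on WD and 4.52% ± 1.61 (SD, n = 6) on CD, a difference that did not pass after adjustment over 4 read classes (exact permutation test over mice, two-sided, p = 0.0433, adjusted p = 0.173). Its part in the results below was not tested.

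**Figure D1:**
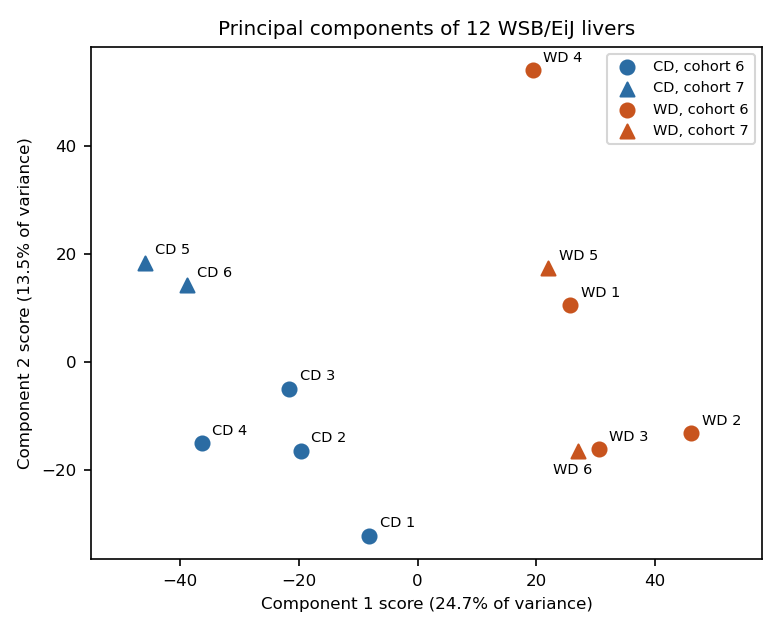
Principal component scores of the 12 WSB/EiJ livers (axes: components 1 and 2, with the share of variance), coloured by diet and shaped by cohort, each point being 1 mouse. All WD livers lie to the right of all CD livers, and WD replicate 4 lies far above the others at 53.9 on component 2.

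Of 19110 genes tested, 1022 (5.35%) were higher and 849 (4.44%) were lower on WD at a Benjamini–Hochberg adjusted p below 0.05. These shares are the level to set beside each list count below. Fold changes are the fitted WD minus CD difference of log2 CPM, with its standard error. The median over all genes was 0.00. Larger changes leaned upward, with 322 of the called genes above 1 and 143 below -1 on the log2 scale. Without regard to the test, 833 genes (4.36%) had no overlap between the 6 WD and 6 CD mice. The called genes had the same sign in cohort 6 and cohort 7 in 1864 of 1871 cases, against 61.9% of all genes tested, but both cohorts entered the fit that called them, so this describes the fit and is no independent check.

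**Figure D2:**
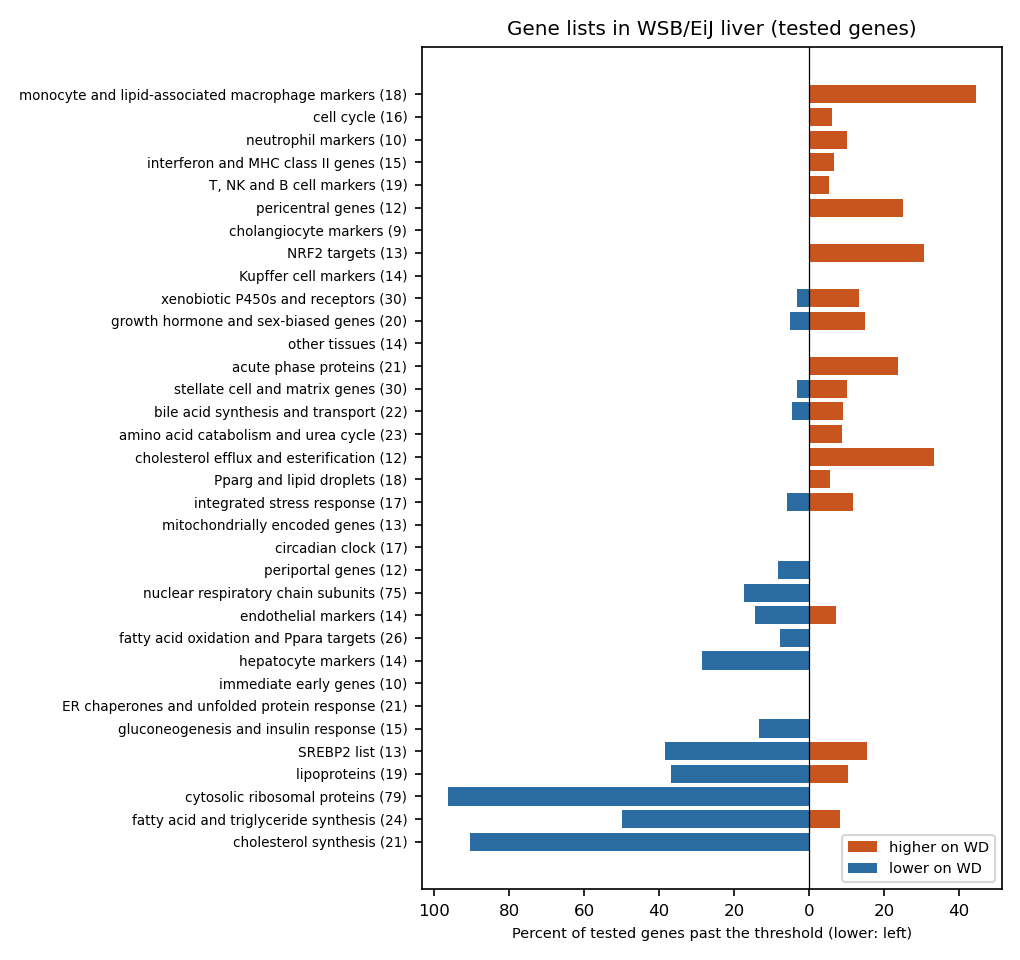
Share of the tested genes of each list (number in brackets) that were higher (bars to the right) or lower (bars to the left) on WD in WSB/EiJ liver, with lists in the order of their median log2 fold change. Cytosolic ribosomal proteins (76 of 79 lower) and cholesterol synthesis (19 of 21 lower) show the longest bars to the left, and the monocyte and lipid-associated macrophage list (8 of 18 higher) the longest to the right.

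Cholesterol synthesis was lower on WD along the pathway. Of its 21 tested genes 19 fell and none rose, with a median log2 fold change of -1.09 against 0.00 over all genes, and in 14 the mice of the 2 diets did not overlap. Hsd17b7 and Acat2 were the members that did not pass (adjusted p = 0.0506 and 0.105). The largest fall was in Idi1, which isomerises the isoprenoid building block, at 6.21 to 38.0 CPM (median 22.4) on CD and 0.626 to 1.82 CPM (median 1.07) on WD. The log2 fold change was -4.14 ± 0.49 (SE), with an adjusted p = 1.11e-09. No WD mouse reached the lowest CD mouse. Sqle, the squalene epoxidase and a control point of the later pathway, was at 9.85 to 99.0 CPM (median 56.4) on CD and 3.96 to 4.97 CPM (median 4.41) on WD. For Sqle the log2 fold change was -3.25 ± 0.43 (SE), with an adjusted p = 2.15e-08. Cyp51, which removes a methyl group from lanosterol, was at 43.8 to 159 CPM (median 120.1) on CD and 7.73 to 15.5 CPM (median 12.9) on WD. For Cyp51 the log2 fold change was -3.05 ± 0.23 (SE), with an adjusted p = 1.14e-17. For both genes the WD values were tightly grouped and the CD values were widely spread, without overlap. Fdps, which makes farnesyl diphosphate, fell from a CD median of 3.03 CPM to a WD median of 0.260 CPM (log2 fold change -3.27 ± 0.59 (SE), adjusted p = 3.91e-05), at a low level of expression, and Msmo1, a sterol demethylation enzyme, fell from 80.04 to 10.5 CPM (log2 fold change -2.71 ± 0.32 (SE), adjusted p = 8.5e-10).

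Hmgcs1, whose promoter is shown above, was lower as well. It was at 28.5 to 116 CPM (median 65.6) on CD and 25.6 to 37.3 CPM (median 27.3) on WD. For Hmgcs1 the log2 fold change was -1.04 ± 0.28 (SE), with an adjusted p = 0.0071. The lowest CD mouse lay inside the WD range. A difference between enzymes in the size of their fall was not tested. Without CD replicate 5, 18 members of the list were called in place of 19.

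Genes that regulate sterol balance were lower in part. Of 13 tested genes in the SREBP2 list, 5 were lower and 2 were higher, among them Mbtps1 by 0.14 on the log2 scale, with a list median of -0.24. Stard4, a carrier of cholesterol between membranes, was at 56.0 to 145 CPM (median 110.5) on CD and 15.3 to 30.4 CPM (median 22.5) on WD (log2 fold change -2.14 ± 0.16 (SE), adjusted p = 1.14e-17), without overlap. Insig1, which retains SREBPs in the endoplasmic reticulum and is itself a sterol-responsive gene, fell from a median of 183 to 74.8 CPM (log2 fold change -1.43 ± 0.23 (SE), adjusted p = 2.63e-06). Srebf2, which encodes SREBP2, fell from 61.4 to 36.2 CPM (log2 fold change -0.79 ± 0.11 (SE), adjusted p = 4.5e-08).

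Sterol export moved the other way. Abcg5 and Abcg8 encode the partner subunits of the transporter that pumps sterols into bile, and they lie head to head on chromosome 17 (chr17:84658234-84683011 and chr17:84676302-84700333 in GRCm38) with annotated overlap on opposite strands, so that reads in the shared stretch cannot be assigned without strand. Abcg5 was at 58.4 to 86.9 CPM (median 79.99) on CD and 156 to 419 CPM (median 254) on WD. For Abcg5 the log2 fold change was 1.73 ± 0.14 (SE), with an adjusted p = 2.02e-16. Abcg8 was at 77.8 to 109 CPM (median 98.0) on CD and 157 to 427 CPM (median 266) on WD. For Abcg8 the log2 fold change was 1.46 ± 0.16 (SE), with an adjusted p = 1.35e-10. All WD mice were above all CD mice for both. Of the 12 efflux and esterification genes tested, 4 were higher and none was lower, with a median of 0.11. The others called were Scarb1, the receptor that takes up cholesterol from high density lipoprotein, which rose from a median of 274 to 391 CPM (log2 fold change 0.56 ± 0.09 (SE), adjusted p = 2.25e-06), and Abcg1, an exporter to lipoproteins, which rose from 6.32 to 9.20 CPM (log2 fold change 0.68 ± 0.17 (SE), adjusted p = 0.00531). Abcg1 was highest in WD replicate 4 (17.5 CPM) and lost its call without that mouse (adjusted p = 0.0627). Abca1, another exporter and LXR target, was at 241 to 328 CPM (median 298) on CD and 244 to 354 CPM (median 332) on WD and did not pass (log2 fold change 0.16, 95% interval -0.07 to 0.39).

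**Figure D3:**
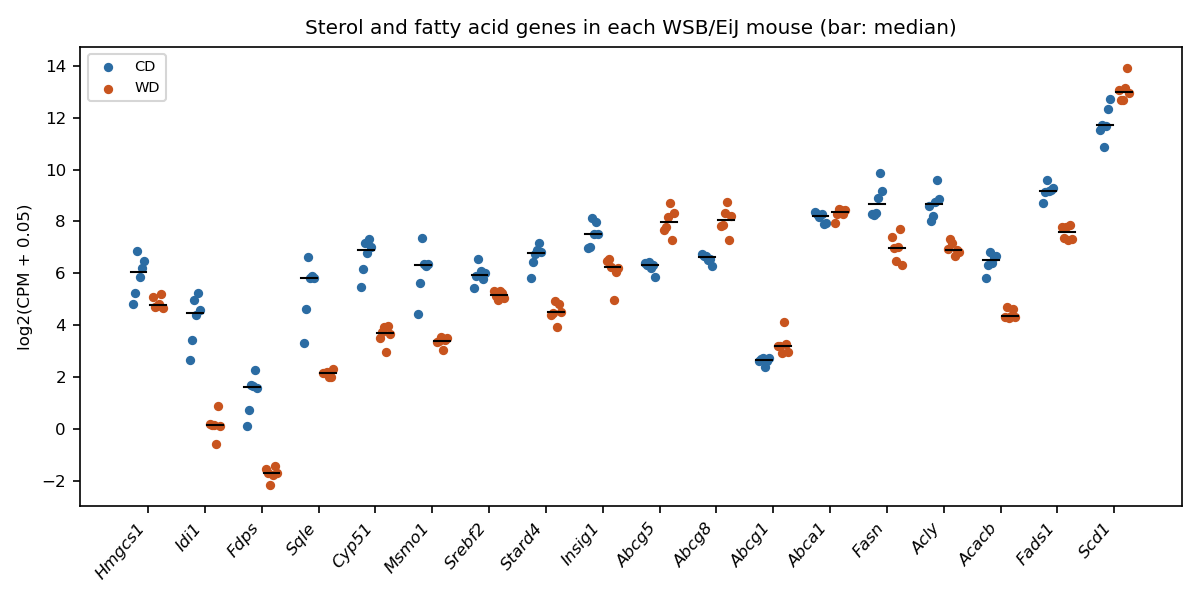
Level of sterol and fatty acid genes in each WSB/EiJ mouse, as log2 of CPM plus 0.05, with CD in blue, WD in orange and the median as a bar. Idi1, Sqle, Cyp51 and Stard4 lie lower on WD and Abcg5 and Abcg8 higher, each without overlap, while Abca1 overlaps between the diets.

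Genes for making fatty acids were mostly lower on WD, but not the desaturase Scd1. Of 24 tested genes for fatty acid and triglyceride synthesis, 12 fell and 2 (Scd1 and Agpat2) rose, with a median of -0.68. Fasn, the fatty acid synthase, was at 305 to 932 CPM (median 404) on CD and 79.8 to 206 CPM (median 127) on WD. For Fasn the log2 fold change was -1.82 ± 0.29 (SE), with an adjusted p = 2.25e-06. Acly, which supplies cytosolic acetyl-CoA, was at 256 to 773 CPM (median 405) on CD and 102 to 160.1 CPM (median 121) on WD. For Acly the log2 fold change was -1.68 ± 0.26 (SE), with an adjusted p = 2.2e-06. Acacb, the carboxylase that makes the malonyl-CoA which restrains mitochondrial fatty acid import, was at 55.8 to 114 CPM (median 91.6) on CD and 19.3 to 26.3 CPM (median 20.2) on WD. For Acacb the log2 fold change was -2.01 ± 0.29 (SE), with an adjusted p = 3.74e-07. No WD mouse overlapped a CD mouse for any of these 3. Fads1, a desaturase for polyunsaturated fatty acids, fell from a median of 582 to 192 CPM (log2 fold change -1.62 ± 0.13 (SE), adjusted p = 4.28e-17). Scd1, which introduces the double bond of oleate, was at 1874 to 6828 CPM (median 3333) on CD and 6482 to 15489 CPM (median 8156) on WD (log2 fold change 1.26 ± 0.28 (SE), adjusted p = 0.000861), with the lowest WD mouse inside the CD range and the highest value in WD replicate 5. The lipogenic regulator gene Srebf1 was higher in all 6 WD mice than in any CD mouse (143 to 221 CPM (median 203) on CD and 234 to 324 CPM (median 276) on WD) but did not pass the test (log2 fold change 0.55 ± 0.23 (SE), adjusted p = 0.133). The carbohydrate content of the 2 diets differed as well as the fat content, and their parts cannot be told apart.

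The shares of lipid storage and oxidation genes called were near those over all genes (5.35% higher and 4.44% lower). Of 18 genes of the Pparg and lipid droplet list 1 was higher (5.56%), the fatty acid transporter gene Cd36, at 19.2 to 27.1 CPM (median 23.6) on CD and 24.2 to 45.6 CPM (median 43.4) on WD (log2 fold change 0.73 ± 0.23 (SE), adjusted p = 0.0293), and it lost its call without WD replicate 4 (adjusted p = 0.0638) or without CD replicate 5 (adjusted p = 0.0503). Pparg, the adipogenic receptor, was scarce, at 0.304 to 0.675 CPM (median 0.475) on CD and 0.342 to 1.27 CPM (median 1.15) on WD. For Pparg the log2 fold change was 1.02 ± 0.69 (SE), with an adjusted p = 0.412. The droplet protein gene Cidec had a median of 3.95 CPM on CD and 4.48 CPM on WD, with a 95% interval of the log2 fold change from -1.49 to 1.49, and Plin2, which coats droplets, had medians of 411 and 432 CPM (95% interval -0.68 to 0.48). Such intervals are wide and leave sizeable changes possible. Of 26 oxidation genes and Ppara targets, 2 were lower (7.69%) and none higher, with a median of -0.14. These were Fabp1, a fatty acid binding protein (log2 fold change -0.55 ± 0.19 (SE), adjusted p = 0.0458), which lost its call without WD replicate 4 (adjusted p = 0.168), and Acadl, a mitochondrial acyl-CoA dehydrogenase (log2 fold change -0.29 ± 0.09 (SE), adjusted p = 0.0278). Cpt1a, which admits fatty acids to mitochondria, did not pass (log2 fold change -0.34 ± 0.17 (SE), adjusted p = 0.236). Cyp4a14, an omega-hydroxylase, spanned 7.42 to 405 CPM (median 59.2) on CD and 8.13 to 50.4 CPM (median 18.5) on WD (log2 fold change -1.78 ± 0.83 (SE), adjusted p = 0.178), and without CD replicate 5 it passed (adjusted p = 0.0391). Fgf21, a fasting-induced hormone, did not pass (log2 fold change -1.59 ± 0.76 (SE), adjusted p = 0.199).

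Among 19 lipoprotein genes 7 were lower and 2 (Apoc1 and Apoe) higher, with a median of -0.27. Apoa1, the main protein of high density lipoprotein, was at 16069.7 to 19183 CPM (median 17336) on CD and 10160.0 to 12998 CPM (median 11693) on WD, without overlap (log2 fold change -0.60 ± 0.09 (SE), adjusted p = 4.14e-07). Angptl8, an insulin-responsive inhibitor of lipoprotein lipase that lies within Dock6 on the other strand, was at 42.4 to 302 CPM (median 85.9) on CD and 8.75 to 44.1 CPM (median 21.7) on WD (log2 fold change -2.25 ± 0.47 (SE), adjusted p = 0.000407), and the top WD mouse reached just above the lowest CD mouse. Apom, a carrier of sphingosine phosphate, fell from a median of 319 to 213 CPM (log2 fold change -0.55 ± 0.14 (SE), adjusted p = 0.00397). Lipg, the endothelial lipase gene, was at 14.1 to 50.4 CPM (median 18.8) on CD and 3.40 to 15.4 CPM (median 8.32) on WD (log2 fold change -1.37 ± 0.41 (SE), adjusted p = 0.0192), with its highest value in CD replicate 3, and it lost its call without WD replicate 4 (adjusted p = 0.0969). In the glucose list of 15 genes, 2 were lower and none higher, with a median of -0.21: Gys2, the liver glycogen synthase (log2 fold change -0.56 ± 0.18 (SE), adjusted p = 0.0348), and Enho, which encodes adropin (log2 fold change -0.89 ± 0.27 (SE), adjusted p = 0.0206). Both were lost without CD replicate 5 (adjusted p = 0.124 and 0.0865), and Gys2 also without WD replicate 4 (adjusted p = 0.172). Pck1 and G6pc, enzymes of gluconeogenesis, overlapped widely (log2 fold change 0.13 ± 0.28 (SE), adjusted p = 0.849 and log2 fold change -0.73 ± 0.40 (SE), adjusted p = 0.283).

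In bile acid metabolism the synthesis enzymes did not pass. Cyp7a1, the rate-limiting enzyme of the classic pathway, was at 24.5 to 273 CPM (median 78.7) on CD and 60.0 to 418 CPM (median 178) on WD (log2 fold change 1.15 ± 0.56 (SE), adjusted p = 0.206), and Cyp8b1, which sets the share of cholic acid, was at 496 to 657 CPM (median 568) on CD and 393 to 656 CPM (median 555) on WD. For Cyp8b1 the log2 fold change was -0.09 ± 0.30 (SE), with an adjusted p = 0.91. The 22 tested genes of the list had a median of 0.13. Among them 2 transporters were higher (9.09%) and 1 was lower (4.55%), against 5.35% and 4.44% over all genes. The lower was Slco1a4, a basolateral uptake transporter, at 24.0 to 54.8 CPM (median 49.0) on CD and 9.00 to 17.8 CPM (median 12.7) on WD, without overlap (log2 fold change -1.70 ± 0.31 (SE), adjusted p = 5.83e-05). The higher were Abcc3, a basolateral exporter (log2 fold change 0.71 ± 0.18 (SE), adjusted p = 0.00355), and Slco1b2, an uptake transporter (log2 fold change 0.41 ± 0.14 (SE), adjusted p = 0.0499), the latter lost without CD replicate 5 (adjusted p = 0.121).

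Drug-metabolising cytochromes included some of the clearest increases. Of 30 genes in the xenobiotic list, 4 were higher and Ugt1a1, a bilirubin-conjugating enzyme, was lower (log2 fold change -0.47, adjusted p = 0.00735), with a list median of 0.25. Cyp3a11, the main mouse hepatic CYP3A gene and a target of the receptor PXR, was at 70.7 to 209 CPM (median 99.8) on CD and 215 to 872 CPM (median 699) on WD. For Cyp3a11 the log2 fold change was 2.46 ± 0.23 (SE), with an adjusted p = 2.15e-13. The lowest WD value, in WD replicate 4, was only just above the highest CD value. Cyp2a5, a coumarin hydroxylase, was at 94.5 to 166 CPM (median 107) on CD and 204 to 516 CPM (median 399) on WD, without overlap (log2 fold change 1.72 ± 0.37 (SE), adjusted p = 0.000739). Cyp2b10, a target of the receptor CAR, was rare in both groups at 0.0945 to 0.214 CPM (median 0.136) on CD and 0.224 to 3.28 CPM (median 1.45) on WD (log2 fold change 2.83 ± 0.95 (SE), adjusted p = 0.0423), and it lost its call without CD replicate 5 (adjusted p = 0.0908). These genes have close paralogs, and reads that match several copies were not counted, so the level of each is uncertain. Of 13 NRF2 targets, 4 were higher and none lower, with a median of 0.30. Ephx1, a microsomal epoxide hydrolase, rose from a median of 179 to 388 CPM (log2 fold change 1.09 ± 0.15 (SE), adjusted p = 1.5e-07). Gsta4, a glutathione transferase for lipid peroxidation products, rose from 29.6 to 48.0 CPM (log2 fold change 0.62 ± 0.14 (SE), adjusted p = 0.00127), although in WD replicate 4 it was at 23.8 CPM, below every CD mouse. Gclm, a subunit of the enzyme that starts glutathione synthesis, rose by 0.30 ± 0.06 (SE) on the log2 scale (adjusted p = 0.000445). Slc7a11, a cystine transporter that shares its locus with several annotated genes, was called from very low levels (0.0235 to 0.0945 CPM (median 0.0258) on CD and 0.131 to 1.000 CPM (median 0.473) on WD), and Nqo1, a quinone reductase, did not pass although its groups did not overlap (log2 fold change 0.48 ± 0.20 (SE), adjusted p = 0.124).

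Macrophage genes rose from a low level. In the list for monocytes and lipid-associated macrophages, 8 of 18 genes were higher and none lower, with a median log2 fold change of 1.14. Gpnmb, a glycoprotein of lipid-laden macrophages, was at 0.254 to 1.41 CPM (median 0.394) on CD and 2.89 to 24.9 CPM (median 10.9) on WD. For Gpnmb the log2 fold change was 4.44 ± 1.11 (SE), with an adjusted p = 0.00393. Mmp12, the macrophage elastase, was at 0.380 to 1.13 CPM (median 0.682) on CD and 5.00 to 24.8 CPM (median 13.4) on WD. For Mmp12 the log2 fold change was 4.18 ± 0.83 (SE), with an adjusted p = 0.000194. Both genes were higher in every WD mouse than in any CD mouse, with the highest values in WD replicate 4 and the lowest WD values in WD replicate 6. Itgax, which encodes CD11c, was at 0.0238 to 0.307 CPM (median 0.258) on CD and 1.18 to 4.45 CPM (median 2.49) on WD. For Itgax the log2 fold change was 3.74 ± 0.73 (SE), with an adjusted p = 0.000144. Cx3cr1, a chemokine receptor whose locus overlaps other genes, was at 0.0475 to 0.304 CPM (median 0.182) on CD and 0.316 to 1.30 CPM (median 0.888) on WD. For Cx3cr1 the log2 fold change was 2.35 ± 0.73 (SE), with an adjusted p = 0.0266. Trem2, the lipid receptor of these macrophages, had a median of 0.435 CPM on CD and 1.60 CPM on WD and did not pass (log2 fold change 1.76 ± 0.65 (SE), adjusted p = 0.0711). More cells of a type and more RNA per cell cannot be told apart in whole liver. The summed level of the list was 88.6 to 133.1 CPM on CD and 117.2 to 326.2 CPM on WD, with the top value in WD replicate 4 and an overlap at WD replicate 6. Without WD replicate 4, 5 members were called (Gpnmb, Mmp12, Itgax, Clec7a and Ccr2), and Cx3cr1 was not (adjusted p = 0.0553).

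Markers of resident Kupffer cells did not pass. Of 14, 0 were called by limma-voom, edgeR or DESeq2, and 1 had an unadjusted p below 0.05. They had a positive log2 fold change in 13, a median of 0.29 and a summed level of 570.3 to 676.6 CPM on CD and 508.6 to 959.4 CPM on WD. Clec4f, a marker particular to Kupffer cells, was at 47.5 to 71.4 CPM (median 61.1) on CD and 39.0 to 101 CPM (median 75.4) on WD (log2 fold change 0.24 ± 0.21 (SE), adjusted p = 0.559), and Adgre1, which encodes F4/80, was at 6.86 to 8.06 CPM (median 7.25) on CD and 5.65 to 16.0 CPM (median 11.6) on WD. For Adgre1 the log2 fold change was 0.61 ± 0.29 (SE), with an adjusted p = 0.197. Of 19 lymphocyte markers only Cd4 was called (5.26% higher, against 5.35% over all genes). Cd4 was at 1.10 to 5.61 CPM (median 1.46) on CD and 3.49 to 8.25 CPM (median 5.06) on WD. For Cd4 the log2 fold change was 1.59 ± 0.26 (SE), with an adjusted p = 8.32e-06. CD replicate 1 was alone among CD mice in reaching the WD range. Cd3e, a subunit of the T cell receptor complex, stayed near the limit of detection at 0.0475 to 0.258 CPM (median 0.116) on CD and 0.0920 to 0.313 CPM (median 0.202) on WD. For Cd3e the log2 fold change was 0.61 ± 0.42 (SE), with an adjusted p = 0.421. Among the 15 interferon and MHC class II genes 1 was called (6.67% higher, against 5.35% over all genes). This was Ciita, the class II transactivator, at a low level (log2 fold change 1.52 ± 0.50 (SE), adjusted p = 0.0364), and the call was lost without WD replicate 4 (adjusted p = 0.0623). Cd74, the invariant chain, was not called (log2 fold change 0.55 ± 0.27 (SE), adjusted p = 0.222). Of 16 cell cycle genes 1 was called (6.25% higher, against 5.35% over all genes). This was Birc5, a mitotic survivin, at 0.376 to 1.06 CPM (median 0.689) on CD and 1.04 to 2.28 CPM (median 1.68) on WD. For Birc5 the log2 fold change was 1.34 ± 0.42 (SE), with an adjusted p = 0.0286.

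Of 30 stellate cell and matrix genes, 3 (10%) were higher and Col5a2 (3.33%) was lower, with a median of 0.16. Over all genes the shares were 5.35% and 4.44%. Col3a1, the type III collagen chain, was at 14.7 to 21.9 CPM (median 16.3) on CD and 24.7 to 44.7 CPM (median 35.6) on WD without overlap (log2 fold change 0.99 ± 0.33 (SE), adjusted p = 0.0367), but it lost its call without WD replicate 4 (adjusted p = 0.0859) or without CD replicate 5 (adjusted p = 0.0728). Timp1, an inhibitor of matrix proteases that overlaps Syn1 on the other strand, and Mmp13, a collagenase, were called at under 1.2 CPM in every mouse (log2 fold change 2.55 ± 0.76 (SE), adjusted p = 0.0192 for Timp1 and log2 fold change 3.06 ± 0.82 (SE), adjusted p = 0.00822 for Mmp13). Col1a1, the main fibrillar collagen chain, was at 2.28 to 6.96 CPM (median 3.53) on CD and 6.36 to 16.3 CPM (median 12.0) on WD and did not pass (log2 fold change 1.52 ± 0.57 (SE), adjusted p = 0.0767). Acta2, a marker of activated stellate cells and smooth muscle, did not pass (log2 fold change -0.21 ± 0.23 (SE), adjusted p = 0.674). Col5a2 was at 103 to 383 CPM (median 268) on CD and 42.0 to 229 CPM (median 166) on WD (log2 fold change -0.92 ± 0.28 (SE), adjusted p = 0.0255), with wide overlap, and was lost without CD replicate 5 (adjusted p = 0.0568). Of 14 endothelial markers 2 were lower and 1 was higher, with a median of -0.13 and a negative log2 fold change in 12. The lower ones were Bmp2, a growth factor gene (log2 fold change -0.41 ± 0.11 (SE), adjusted p = 0.00522), which kept its call without WD replicate 4 and without CD replicate 5, and the receptor gene Kdr (log2 fold change -0.33 ± 0.11 (SE), adjusted p = 0.0396), which was lost without CD replicate 5 (adjusted p = 0.0752). Vwf was higher without overlap (log2 fold change 0.63 ± 0.15 (SE), adjusted p = 0.00176). Of 9 cholangiocyte markers 0 were called by limma-voom, 1 had an unadjusted p below 0.05, and edgeR and DESeq2 called 1 each.

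**Figure D4:**
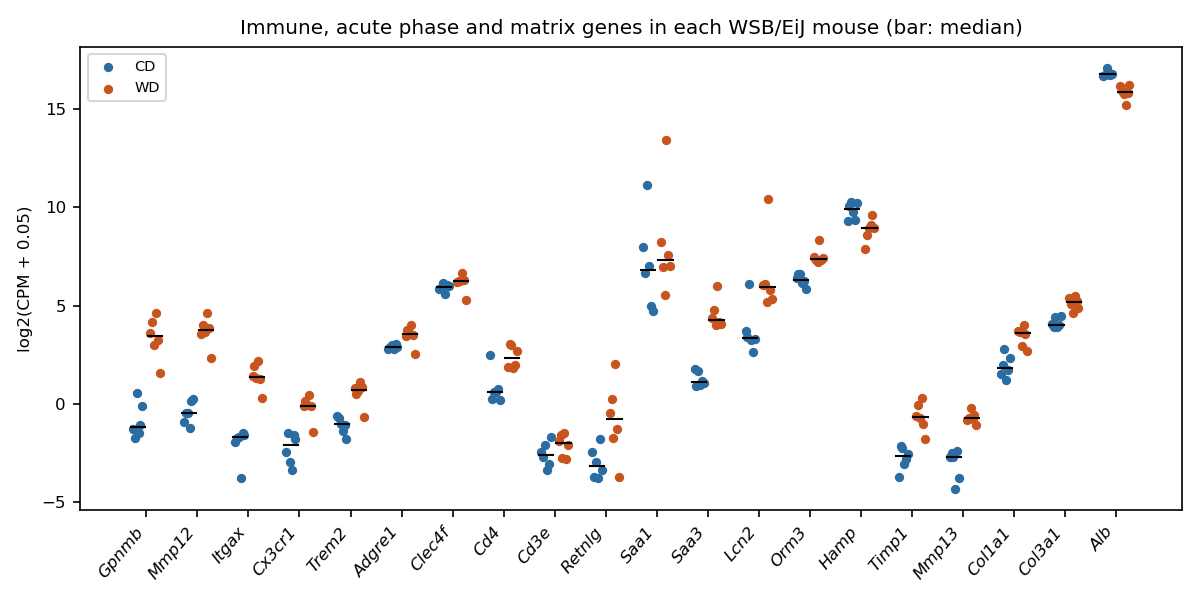
Level of immune, acute phase and matrix genes in each WSB/EiJ mouse, as log2 of CPM plus 0.05, with CD in blue, WD in orange and the median as a bar. Gpnmb, Mmp12 and Itgax lie higher on WD without overlap, Clec4f overlaps, and Saa1 and Lcn2 each show 1 WD mouse far above the rest, at 10892 and 1378 CPM.

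Saa1 and the summed level of the acute phase list were set apart in a single WD liver. Saa1, an acute phase apolipoprotein with a close paralog, was at 26.2 to 2242 CPM (median 114) on CD and 46.4 to 10892 CPM (median 160.2) on WD and did not pass (log2 fold change 1.09 ± 0.73 (SE), adjusted p = 0.409). WD replicate 4 held the highest value, CD replicate 3 held the next, and without WD replicate 4 the log2 fold change was 0.13. Lcn2, an iron-siderophore binding protein of inflamed liver, was at 6.14 to 67.3 CPM (median 10.1) on CD and 35.9 to 1378 CPM (median 61.0) on WD. For Lcn2 the log2 fold change was 2.77 ± 0.53 (SE), with an adjusted p = 0.000102. Its fold change was 1.97 without WD replicate 4 (adjusted p = 0.00208). Saa3, a serum amyloid gene expressed largely by macrophages, was at 1.80 to 3.33 CPM (median 2.13) on CD and 16.2 to 63.3 CPM (median 19.3) on WD (log2 fold change 3.36 ± 0.33 (SE), adjusted p = 1.36e-12), with all WD mice above all CD mice, and stood at 3.07 without WD replicate 4. Orm3, an orosomucoid gene with close paralogs, rose from a median of 79.9 to 166 CPM (log2 fold change 1.21 ± 0.33 (SE), adjusted p = 0.00948). Hamp, the iron hormone hepcidin, did not pass (log2 fold change -0.98 ± 0.48 (SE), adjusted p = 0.218). In the list of 21 acute phase proteins 5 were higher and none lower. With WD replicate 4 left out, 4 were higher, and 5 were lower, namely Apcs, Fga, Fgb, Fgg and Itih4, by 0.57 to 1.67 on the log2 scale. The summed level of the list was 99679 CPM in that mouse and 25009 to 31268 CPM in the other 5 WD mice. On CD it was 31440 to 57000 CPM, with the highest value in CD replicate 3. The other 5 WD mice thus lay below every CD mouse. The neutrophil gene Retnlg was called (log2 fold change 2.95 ± 0.72 (SE), adjusted p = 0.00303) and was highest in WD replicate 4 too, at 4.00 CPM. It was the 1 gene called of 10 neutrophil markers (10% higher, against 5.35% over all genes). All 10 had a positive log2 fold change, with a median of 0.535.

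Among hepatocyte markers 4 of 14 were lower and none higher, with a median of -0.15. Alb, which encodes serum albumin, was at 102890.0 to 138572 CPM (median 110370.0) on CD and 37566 to 75578 CPM (median 59541) on WD. For Alb the log2 fold change was -0.95 ± 0.10 (SE), with an adjusted p = 2.31e-11. The lowest value was in WD replicate 4, the groups did not overlap, and the fall was 0.83 without that mouse. Ahsg, a plasma glycoprotein, Cebpa, a hepatocyte transcription factor, and Ttr, the thyroxine carrier, fell by 0.50, 0.44 and 0.42 on the log2 scale (adjusted p = 0.000944, 0.00961 and 0.000409), each without overlap. Since CPM is a share of a library, a fall in a transcript as abundant as Alb leaves more of the reads to other genes, and the normalization factors are meant to offset this. Pericentral genes included 3 of 12 higher (25%) and none lower, against 5.35% and 4.44% over all genes. The count of higher ones fell to 2 without CD replicate 5. The higher ones included Rhbg, an ammonium transporter (log2 fold change 1.30 ± 0.30 (SE), adjusted p = 0.00138), and Oat, which degrades ornithine (log2 fold change 0.69 ± 0.19 (SE), adjusted p = 0.00994). Glul, the glutamine synthetase of the innermost pericentral cells, was not called (log2 fold change 0.19 ± 0.21 (SE), adjusted p = 0.672). In the periportal list of 12 genes, 1 was lower (8.33%) and none higher, with a median of -0.06. Prodh, which starts proline breakdown, was higher without overlap (log2 fold change 0.81 ± 0.17 (SE), adjusted p = 0.000538) and was with Oat the called part of 23 amino acid and urea cycle genes. In that list 8.7% were thus higher and none lower, against 5.35% and 4.44% over all genes.

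Cytosolic ribosomal protein genes were shifted downward together by a small amount. Of 79 tested, 76 were lower and none higher, 49 had no overlap between diets, and the fold changes ran from -0.54 to -0.15 with a median of -0.32 against 0.00 over all genes. Rpl23a fell from a median of 30.8 to 20.9 CPM (log2 fold change -0.54 ± 0.11 (SE), adjusted p = 0.000235) and Rpl36 from 82.3 to 57.7 CPM (log2 fold change -0.49 ± 0.09 (SE), adjusted p = 0.000106). These genes have many pseudogene copies, and their summed level was 10617 to 12603 CPM on CD and 8515 to 9862 CPM on WD. In cohort 6 alone the median was -0.24 and 4 of the 79 were called. Nuclear genes of the respiratory chain moved less, with 13 of 75 lower, none higher and a median of -0.11. Ndufb10, a subunit of complex I, fell from 98.0 to 80.9 CPM (log2 fold change -0.32 ± 0.07 (SE), adjusted p = 0.000584), and Uqcrh, of complex III, from 106 to 90.1 CPM (log2 fold change -0.29 ± 0.07 (SE), adjusted p = 0.00112). Of the 13 mitochondrially encoded genes 0 were called by limma-voom, edgeR or DESeq2, 0 had an unadjusted p below 0.05, and their median was 0.02. The share of unmapped reads was also higher on WD, as given above, and its part in this shift was not tested.

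Some of the largest changes without overlap, among genes averaging 1 or more in log2 CPM, lay outside these lists. Tmem28, a membrane protein gene on the X chromosome, was at 0.470 to 5.79 CPM (median 1.43) on CD and 13.1 to 21.2 CPM (median 17.7) on WD. For Tmem28 the log2 fold change was 3.50 ± 0.37 (SE), with an adjusted p = 2.83e-11. Ddah1, which degrades the nitric oxide synthase inhibitor asymmetric dimethylarginine, was at 2.42 to 18.8 CPM (median 4.28) on CD and 29.8 to 66.8 CPM (median 41.9) on WD (log2 fold change 3.04 ± 0.22 (SE), adjusted p = 1.96e-18), with CD replicate 6 well above the other CD mice. Ace, the angiotensin-converting enzyme gene, was at 1.63 to 3.14 CPM (median 2.05) on CD and 3.800 to 19.7 CPM (median 10.2) on WD. For Ace the log2 fold change was 2.22 ± 0.27 (SE), with an adjusted p = 2.72e-09. Acot11, an acyl-CoA thioesterase, rose from a median of 2.98 to 17.0 CPM (log2 fold change 2.31 ± 0.29 (SE), adjusted p = 4.96e-09), and Nebl, which encodes nebulette, from 0.861 to 4.17 CPM (log2 fold change 2.21 ± 0.26 (SE), adjusted p = 1.32e-09). Beyond the sterol and lipogenic genes, the largest falls included Fras1, an extracellular matrix protein, from 7.61 to 1.90 CPM (log2 fold change -1.79 ± 0.22 (SE), adjusted p = 2.72e-09), and Txnip, a glucose-responsive inhibitor of thioredoxin, from 347 to 110.1 CPM (log2 fold change -1.75 ± 0.27 (SE), adjusted p = 1.07e-06).

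Sex-biased hepatocyte genes were spread between mice. Of 20 genes, 3 were higher (Cyp4a12b, Mup20 and Ugt2b1) and 1 was lower. Cyp4a12b, a male-biased hydroxylase with a close paralog, was at 6.02 to 24.5 CPM (median 11.4) on CD and 8.65 to 125 CPM (median 57.2) on WD. For Cyp4a12b the log2 fold change was 2.08 ± 0.43 (SE), with an adjusted p = 0.000339. Mup20, which encodes the male urinary pheromone darcin and belongs to a near-identical family, was at 333 to 2502 CPM (median 656) on CD and 1033 to 4617 CPM (median 2274) on WD (log2 fold change 1.55 ± 0.39 (SE), adjusted p = 0.0043), and CD replicate 1 lay inside the WD range. Prlr, the prolactin receptor gene, fell from a median of 92.8 to 24.5 CPM (log2 fold change -1.86 ± 0.37 (SE), adjusted p = 0.000225). The integrated stress response list had Chac1 (log2 fold change 0.97 ± 0.33 (SE), adjusted p = 0.0484) and Shmt2 (log2 fold change 0.34 ± 0.10 (SE), adjusted p = 0.0175) higher and Atf4 lower (log2 fold change -0.43 ± 0.11 (SE), adjusted p = 0.0039) of 17, with Chac1 lost without WD replicate 4 (adjusted p = 0.26). The shares were 11.8% higher and 5.88% lower, against 5.35% and 4.44% over all genes. Gdf15, a stress hormone gene, did not pass (log2 fold change 0.22 ± 0.47 (SE), adjusted p = 0.853), nor did the chaperone gene Hspa5 (log2 fold change -0.37 ± 0.23 (SE), adjusted p = 0.378). Of 21 endoplasmic reticulum chaperone and unfolded protein response genes 0 were called by limma-voom, edgeR or DESeq2, and 5 had an unadjusted p below 0.05. Their log2 fold change was negative in 19, with a median of -0.20. Of 17 clock genes 0 were called by any of the 3 tools and 0 had an unadjusted p below 0.05, with Arntl at 0.24 ± 0.50 and Per1 at -0.03 ± 0.35 (log2 fold change, SE).

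The diet effect in WSB/EiJ was also set against the mean diet effect of the other 6 strains (81 mice), with a test of the difference itself. It differed for 197 of 19110 genes (1.03%), more positive in WSB/EiJ for 121 and more negative for 76, and 129 of these were among the genes called in WSB/EiJ. The largest positive difference was for Ddah1 (chr3:145758675-145894277, GRCm38), whose log2 fold change was 3.04 in WSB/EiJ against a mean of 0.31 in the others (difference 2.73 ± 0.22 (SE), adjusted p = 4e-15). The subunits of the biliary sterol transporter rose by more, with Abcg5 at 1.73 against 0.75 (difference 0.98 ± 0.15 (SE), adjusted p = 1.32e-05) and Abcg8 at 1.46 against 0.43 (difference 1.03 ± 0.17 (SE), adjusted p = 0.000147), and so did the lipoprotein receptor gene Scarb1, at 0.56 against 0.08 (difference 0.48 ± 0.09 (SE), adjusted p = 0.00277). The rise of the transporter genes was not limited to WSB/EiJ. Among the other strains Abcg5 ranged from 0.29 in 129S1/SvImJ to 1.34 in C57BL/6J. Abcg8 ranged from -0.01 in PWK/PhJ to 1.11 in C57BL/6J. A difference from C57BL/6J by itself was not tested. The exporter genes Abcg1 and Abca1 did not pass this test, with Abcg1 at 0.68 against 0.93 (difference -0.25 ± 0.18 (SE), adjusted p = 0.665) and Abca1 at 0.16 against 0.27 (difference -0.11 ± 0.13 (SE), adjusted p = 0.824). Stard4 fell by more in WSB/EiJ, at -2.14 against -0.71 (difference -1.44 ± 0.17 (SE), adjusted p = 1.43e-08). Cholesterol synthesis as a list had a median of -1.09 in WSB/EiJ and -1.18 in the mean of the others. Cyp51 was the member with a difference past the threshold (difference -0.98 ± 0.24 (SE), adjusted p = 0.0239), and it lost this without WD replicate 4 (adjusted p = 0.0551) or without CD replicate 5 (adjusted p = 0.0721). Its log2 fold change in CAST/EiJ was -3.05, beside -3.05 in WSB/EiJ.

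Lipogenic genes fell by more in WSB/EiJ for Acacb (difference -1.32 ± 0.31 (SE), adjusted p = 0.0162) and Fads1 (difference -1.16 ± 0.14 (SE), adjusted p = 1e-08), and Cd36 rose by less, at 0.73 against 1.73 (difference -0.997 ± 0.25 (SE), adjusted p = 0.0238). For Acacb the other strains ranged from -1.33 in CAST/EiJ to -0.32 in C57BL/6J, beside -2.01 in WSB/EiJ. In CAST/EiJ, another wild-derived strain, the log2 fold change of Cd36 was 0.13 (adjusted p = 0.768), below that in WSB/EiJ, and the other 5 strains ranged from 1.15 to 2.79. Cyp3a11 rose by more (difference 0.96 ± 0.25 (SE), adjusted p = 0.0351), and Slco1a4 fell by more (difference -1.27 ± 0.34 (SE), adjusted p = 0.0383), but neither held without CD replicate 5 (adjusted p = 0.121 and 0.0927), and Cyp3a11 had a larger log2 fold change in CAST/EiJ (3.38) and 129S1/SvImJ (2.64) than in WSB/EiJ (2.46). Saa3 (difference 1.81 ± 0.37 (SE), adjusted p = 0.00355), Cd4 (difference 1.26 ± 0.29 (SE), adjusted p = 0.0105), Nebl (difference 1.43 ± 0.30 (SE), adjusted p = 0.00462), Ace (difference 1.20 ± 0.31 (SE), adjusted p = 0.0268) and Gsta4 (difference 0.58 ± 0.15 (SE), adjusted p = 0.0333) rose by more in WSB/EiJ, of which Ace and Gsta4 did not hold without CD replicate 5 (adjusted p = 0.114 and 0.108). For Ace this is a difference from the mean of the others and not from each of them, since its log2 fold change was 2.54 in PWK/PhJ and 1.71 in 129S1/SvImJ, beside 2.22 in WSB/EiJ and -0.04 in CAST/EiJ. The fall of Fras1 (difference -0.97 ± 0.23 (SE), adjusted p = 0.0142), of Prlr (difference -1.62 ± 0.40 (SE), adjusted p = 0.0207) and of Alb (difference -0.44 ± 0.11 (SE), adjusted p = 0.0206) was larger in WSB/EiJ, and that of Alb did not hold without WD replicate 4 (adjusted p = 0.0884). Col5a2 (difference -1.49 ± 0.34 (SE), adjusted p = 0.0101) and Cd207, the langerin gene (difference -1.50 ± 0.30 (SE), adjusted p = 0.00321), were lower on WD in WSB/EiJ while their mean in the others was 0.58 and 0.66. The fall of Cd207 was not limited to WSB/EiJ, since DBA/2J was at -1.14 (limma-voom adjusted p = 1.08e-05) and WSB/EiJ at -0.84. Within WSB/EiJ, Cd207 lost its call without CD replicate 5 (limma-voom adjusted p = 0.0895). Vnn1, a pantetheinase and Ppara target (difference -1.75 ± 0.43 (SE), adjusted p = 0.0207), Nrep (difference -1.83 ± 0.39 (SE), adjusted p = 0.00663) and Acmsd, an enzyme of tryptophan breakdown (difference 1.28 ± 0.31 (SE), adjusted p = 0.0191), differed although none of the 3 passed within WSB/EiJ (adjusted p = 0.309, 0.132 and 0.0887). Vnn1 was at -1.08 in CAST/EiJ, lower than the -0.68 in WSB/EiJ. Of the 18 genes of the macrophage list 0 passed this test by limma-voom (3 at an unadjusted p below 0.05, 0 by edgeR and 1 by DESeq2), with medians of 1.14 in WSB/EiJ and 1.15 in the others.

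**Figure D5:**
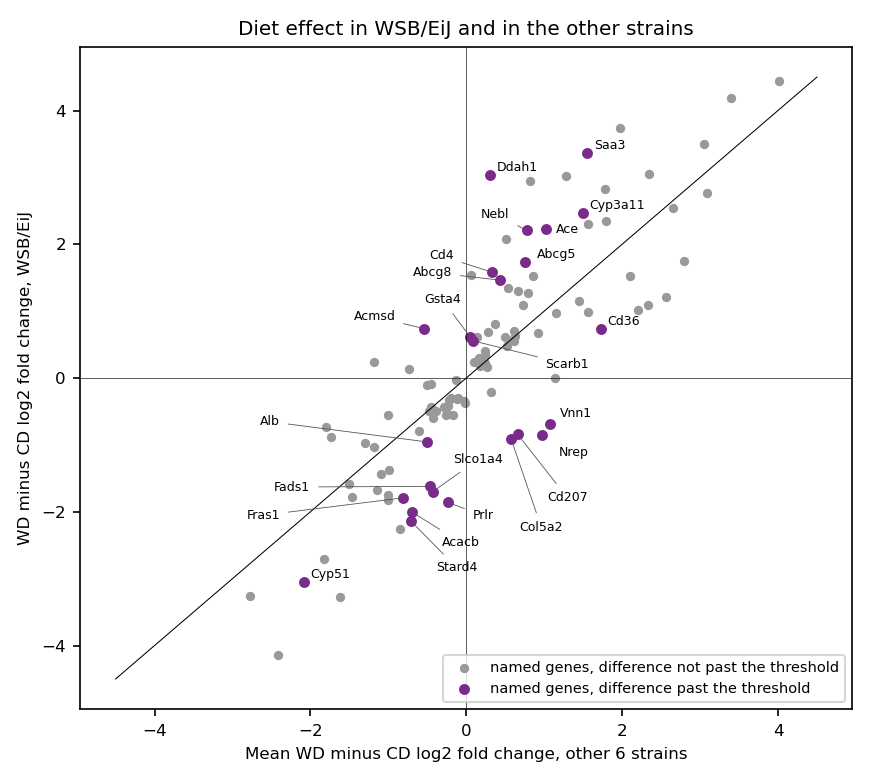
WD minus CD log2 fold change of 109 of the named genes in WSB/EiJ (vertical axis) against the mean of the other 6 strains (horizontal axis), with the line of equal effects. Genes whose difference passed the test are labelled, with Ddah1 farthest above the line (difference 2.73) and Nrep farthest below it (difference -1.83).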

How the data were processed

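The authors made libraries from the RNA of whole liver, sequenced them on the BGISEQ-500, and mapped reads to the C57BL/6J reference (GRCm38) for all strains with STAR (2.7.1a in the submitters' processing notes). The deposited values are raw counts per gene from that aligner, with 4 rows of reads without a gene, which were kept out of library sizes. A reference of another strain can lower counts of WSB/EiJ alleles, and its part in the results was not tested. Of 53465 genes, 19110 passed edgeR's filterByExpr (minimum count 10). Counts of all 93 mice were scaled by TMM factors (edgeR 4.0.16) and fitted with limma-voom (limma 3.58.1), as in the study's methods, with 14 group means and cohort within strain (22 columns), so that all groups share an estimate of the spread. P-values were adjusted by Benjamini–Hochberg over all genes tested. Nothing in the labels pairs the mice, and each library is a separate mouse.

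Gene names and overlaps come from GENCODE vM21. Named genes are the landmark genes, the called members with the largest change in each list (up to 4), the 12 largest increases and 12 largest decreases without overlap, and the 8 largest differences from the other strains in each direction. Some genes that this rule names are not reported here. Ugt1a1 and the other members named from short counts were named after their values were seen. The comparison, gene lists and rules were chosen with earlier results of these data known. The scripts were tested on simulated data. Alternatives were edgeR's quasi-likelihood test, DESeq2 (1.42.0), upper-quartile scaling, 2 filters, no cohort terms, RIN as a covariate, WSB/EiJ mice alone, sample quality weights and cohort 6 alone. Leaving out WD replicate 4 or CD replicate 5 was chosen after seeing the data. Strand use in counting is not given in the sources used here. CPM intervals carry no molecule count, so depth limits cover counting error only.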

Additional observations from a re-analysis of the deposited data

Results flagged for a closer look

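Of the genes named above, 109 were checked within each diet for a mouse far from the other 5 by Dixon's criterion. So were the principal components and the unmapped share. The other genes named, among them Cpa1, Pnlip, Bmp2 and Ugt1a1, were not checked. Of 226 groups checked, 27 (11.9%) held such a mouse. The criterion gives about 1 in 20 for independent, normally distributed values. CPM values of genes from the same 12 mice need not be so, and the share to set beside 11.9% is not known. WD replicate 4 was the far mouse for Abcg1 at 17.5 CPM, Fabp1 at 1426 CPM, Chac1 at 16.6 CPM, Gsta4 at 23.8 CPM, Saa3 at 63.3 CPM, Saa1 at 10892 CPM, Lcn2 at 1378 CPM, Orm3 at 323 CPM and Retnlg at 4.00 CPM. In CD replicate 1 the values that stood apart were Cyp3a11 at 209 CPM, Mup20 at 2502 CPM, Cd4 at 5.61 CPM, Tmem28 at 5.79 CPM and Ace at 3.14 CPM. CD replicate 3 stood apart for Lipg at 50.4 CPM, Saa1 at 2242 CPM and Lcn2 at 67.3 CPM. For CD replicate 6 these were Fabp1 at 4984 CPM, Ddah1 at 18.8 CPM and Per1 at 25.1 CPM. CD replicate 5 was far from the rest for Cyp2a5 at 166 CPM and component 3, at a score of 57.3. In CD replicate 4 it was Itgax at 0.0238 CPM. WD replicate 1 stood apart for Abca1 at 244 CPM and Cyp4a14 at 50.4 CPM. In WD replicate 5 it was Scd1 at 15489 CPM. In WD replicate 6 it was Pparg at 0.342 CPM.

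The diet effect differed between WSB/EiJ and the mean of the other 6 strains, by the test of the difference, for 24 of the 109 genes checked above. It was more positive in WSB/EiJ, in log2 units, for Ddah1 by 2.73, Saa3 by 1.81, Nebl by 1.43, Acmsd by 1.28, Cd4 by 1.26, Ace by 1.20, Abcg8 by 1.03, Abcg5 by 0.98, Cyp3a11 by 0.96, Gsta4 by 0.58 and Scarb1 by 0.48. It was more negative, as a signed difference, for Nrep (-1.83), Vnn1 (-1.75), Prlr (-1.62), Cd207 (-1.50), Col5a2 (-1.49), Stard4 (-1.44), Acacb (-1.32), Slco1a4 (-1.27), Fads1 (-1.16), Cd36 (-0.997), Cyp51 (-0.98), Fras1 (-0.97) and Alb (-0.44).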

How the results depend on the processing

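No paired analysis was possible because the labels carry no replicate number that ties a WD mouse to a CD mouse. Each library held at least 42719337 reads on genes, so depth limits only genes near 1 CPM or below, such as Timp1, Mmp13, Slc7a11 and Cyp2b10. Beside the 1022 higher and 849 lower genes, sample quality weights called 1608 and 1312 and cohort 6 alone, with 8 mice, called 190 and 87. The other 10 alternatives called 815 to 1350 higher and 614 to 980 lower genes. Cholesterol synthesis genes lower on WD numbered 19, 7 in cohort 6 alone and 16 to 21 in the other alternatives. Genes whose diet effect differed from the other strains numbered 197, against 437 by DESeq2 and 760 with quality weights, and 134 to 279 elsewhere, among them 275 without WD replicate 4 and 134 without CD replicate 5. The cause of these moves was not tested. The fit of cohort 6 alone has fewer mice and also takes no estimate of the spread from the other strains.

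The 109 genes checked for far mice held 79 that were called in WSB/EiJ, and the counts here cover these only. Of the 79, 46 lost their call in cohort 6 alone, 16 when genes of any count were tested, 14 with WSB/EiJ mice alone, 9 without CD replicate 5, 9 without WD replicate 4 and 8 without cohort terms, and up to 2 under each of the rest. None of the 79 changed sign. Uncalled genes near 0 did. Cidec, at -0.0012 on the log2 scale, was at 0.0494 by edgeR, 0.0573 by DESeq2, 0.0089 with upper-quartile scaling, 0.0030 with genes of any count, 0.0110 with at least 10 counts in every mouse, 0.0197 without cohort terms, 0.0026 with RIN, 0.200 with quality weights and 0.264 without WD replicate 4, and between -0.151 and 0.264 with a library left out. Plin2 was at 0.0095 with quality weights and 0.0520 without WD replicate 4, against -0.235 without CD replicate 5. Acta2 was at 0.0260 in cohort 6 alone. Per1 was at 0.0161 by edgeR, 0.0187 by DESeq2, 0.0114 with quality weights, 0.0705 without WD replicate 4 and 0.0413 without CD replicate 5. List counts also moved with a library left out. Without WD replicate 4, called genes went from 3 to 5 higher in the sex-biased list, from 2 to 1 higher in the integrated stress list, from 1 to 0 higher in the lipid droplet and interferon lists, from 1 to 2 lower in the matrix list, from 2 to 1 lower in the oxidation and glucose lists, and from 0 to 1 in the efflux (lower), oxidation (higher) and cholangiocyte (higher) lists. Without CD replicate 5, they went from 2 to 1 higher in the SREBP2, bile acid and fatty acid lists, from 1 to 0 higher in the lipid droplet list, from 2 to 0 lower in the glucose list, from 1 to 0 lower in the matrix list, from 2 to 1 lower in the endothelial list and from 1 to 2 higher in the neutrophil list.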
